A study of Mus musculus with 8 samples.

Results

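The estrogen receptor genes, the progesterone receptor gene Pgr and 3 genes of the hormone response of the mammary gland were followed through 24 h after an injection of 17β-estradiol (E2), the main circulating estrogen. The 6 genes were Esr1, Esr2, Pgr, Greb1, Wnt4 and Tnfsf11. Every probe set annotated to one of these symbols and to no other gene was taken, whatever its values, which gave 15 of the 45037 probe sets and 6 of the 18193 genes on the array. Pgr and Esr1 had 3 probe sets each, Greb1 had 4, Wnt4 and Tnfsf11 had 2 each, and Esr2 had 1.

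Estrogen acts on the mammary gland mainly through estrogen receptor alpha, the product of Esr1, a nuclear receptor that binds DNA and recruits coregulators to its target genes. Pgr and Greb1 are textbook targets of that receptor, and the progesterone receptor made from Pgr marks the hormone-sensing luminal cells of the gland. These cells pass the signal to their neighbours through secreted factors, among them WNT4 and the TNF family ligand RANKL, the product of Tnfsf11, both known chiefly as targets of progesterone.

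RNA came from the inguinal mammary gland of virgin mice aged 12 to 13 weeks, all of them gonadectomized (GDX), the vehicle animals included, which takes away gonadal hormone. GDX mice received E2 under the skin and were killed after 1, 3, 6, 12, 18 or, at the latest, 24 h, with 1 array per time. Others received vehicle, with 2 arrays that are both titled 24 h. The strain, the number of mice behind an array and whether mice were pooled are not given in the sources used here. The times used are those of the titles; the description of every sample gives 24 h. The dose is written with conflicting units in the labels and is not stated. Because vehicle was collected at 1 time, an effect of E2 at 1 to 18 h cannot be told apart from an effect of the injection or of the time of day.

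Values are log2 of the deposited probe set intensities, and differences are against the mean of the 2 vehicle arrays. Levels of different probe sets were not set against each other, because probes differ in how brightly they hybridise. Array medians lay between 173.9 and 180.49 intensity units. The vehicle arrays differed by a median of 0.08 log2 over all probe sets, and by 0.01 to 0.39 for the 15 followed here. The markers of the gland were present: all 13 measured luminal epithelial markers and all 6 measured adipocyte markers lay on every array above the level that cuts off the lowest 40% of probe sets (6.97 log2, intensity 125), as did 7 of 9 myoepithelial markers. Of the 15 probe sets, 7 had a mean at or above that level and 8 lay under it: 2 of Pgr, 3 of Greb1, both of Tnfsf11 and the one of Esr2. No level filter was applied in the tests below.

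Pgr and Greb1 were the genes that rose, and the 250 bases before their annotated starts are shown because both responded within 3 h. The sequences are from RefSeq on mouse assembly GRCm38.p6 and run 5′ to 3′ on the gene's own strand; 8 windows matched the 6 genes. Pgr lies at chr9:8899583-8899832 on the plus strand, and capitals mark GGGCGG, the core of an Sp1 site, 47 to 42 bases before the start. The upstream start of Greb1 lies at chr12:16800887-16801136 on the minus strand, and capitals mark the nuclear receptor core motif AGGTCA read on the opposite strand, 88 to 83 bases before the start. A second annotated start of Greb1 lies at chr12:16757240-16757489 on the minus strand and holds none of the searched motifs.
Pgr: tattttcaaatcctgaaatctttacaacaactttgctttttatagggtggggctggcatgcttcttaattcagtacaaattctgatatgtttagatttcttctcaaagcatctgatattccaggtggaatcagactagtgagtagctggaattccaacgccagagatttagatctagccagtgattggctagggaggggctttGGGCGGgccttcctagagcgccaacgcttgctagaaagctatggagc
Greb1, upstream start: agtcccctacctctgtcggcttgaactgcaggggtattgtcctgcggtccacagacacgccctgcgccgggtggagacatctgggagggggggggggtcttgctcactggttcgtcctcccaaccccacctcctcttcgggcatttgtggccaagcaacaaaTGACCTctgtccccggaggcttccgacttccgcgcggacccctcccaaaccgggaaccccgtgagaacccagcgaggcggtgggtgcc
Greb1, second start: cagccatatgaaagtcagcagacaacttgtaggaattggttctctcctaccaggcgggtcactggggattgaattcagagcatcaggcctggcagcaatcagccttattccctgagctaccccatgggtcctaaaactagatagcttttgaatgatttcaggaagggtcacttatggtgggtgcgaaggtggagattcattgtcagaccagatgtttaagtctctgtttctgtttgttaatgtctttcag

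The palindromic estrogen response element GGTCANNNTGACC was found in 0 of the 8 windows, against 0.0639% of all 32851 windows of the same length. Both strands were searched for each motif, and matches of different motifs may overlap. The shorter AGGTCA was found in 1 of the 8 windows, against 14.02% of all. The AP-1 motif TGANTCA was found in 0 of 8, against 6.75%, and GGGCGG in 2 of 8, those of Pgr and Wnt4, against 32.7%. A match describes letters in these short windows and does not show binding.

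Pgr, which encodes the progesterone receptor, rose early and had come back close to the vehicle level by 24 h. On probe set 1439527_at the vehicle arrays read 8.16 and 8.51, and the E2 arrays read 8.64, 10.77, 9.94, 9.63, 8.98 and 8.50 in the order of their times from 1 to 24 h. The arrays at 1, 3, 6, 12 and 18 h lay above both vehicle arrays, with the peak at 3 h, and the 24 h array lay between them. In intensity this was 285.1 and 365.6 units in vehicle against 1745 units at 3 h and 361.4 units at 24 h.

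The rise at 3 h was 2.43 ± 0.135 log2 (SE, 1 array against 2; 95% interval 2.13 to 2.74), or 5.40-fold, with an adjusted p of 5.68e-05 in limma. At 6 h Pgr was 3.03-fold higher (1.60 log2, adjusted p = 0.00109) and at 12 h 2.46-fold higher (1.30 log2, interval 0.997 to 1.60, adjusted p = 0.00915). The 12 h call was lost with the low-level filter (adjusted p = 0.0562) and without the mean-variance trend (0.0516). The differences of 0.31 log2 at 1 h, 0.64 at 18 h and 0.16 at 24 h did not pass (adjusted p = 1.00, 0.444 and 0.808). Of the 3 h difference, 65.8% was present at 6 h and 53.4% at 12 h. The share was 26.5% at 18 h and 6.68% at 24 h.

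The other probe sets of Pgr moved less. Probe set 1421444_at, designed on the RefSeq mRNA, read 5.51 and 5.42 in vehicle and 5.53, 5.93, 5.69, 5.59, 5.81 and 5.60 from 1 to 24 h. All 6 E2 arrays lay above both vehicle arrays, and the highest was again the one at 3 h. Its 3 h difference was 0.47 log2 (interval 0.23 to 0.71, adjusted p = 0.145). Probe set 1455772_at read 6.05 and 5.79 in vehicle and 6.04, 6.03, 6.07, 5.88, 6.00 and 6.06 with E2, a range of 0.28 log2 over all 8 arrays, with no call at any time. Both of these lay under the level of the lowest 40% of probe sets.

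Greb1, an early estrogen target whose product is a cofactor of the estrogen receptor, rose at 3 and 6 h and was close to vehicle from 18 h. Probe set 1439568_at read 5.36 and 5.31 in vehicle and 5.35, 6.79, 6.78, 5.76, 5.45 and 5.47 from 1 to 24 h. The arrays at 3 and 6 h stood far above the rest, and the one at 1 h lay between the vehicle arrays. The rise was 1.45 ± 0.107 log2 at 3 h (2.74-fold, adjusted p = 0.000333) and 1.44 log2 at 6 h (2.72-fold, adjusted p = 0.000514). At 12 h the difference was 0.43 log2 (adjusted p = 0.591), which is 29.3% of that at 3 h, whereas 99.2% was present at 6 h.

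Probe set 1419593_at of Greb1, designed on the RefSeq mRNA, read 5.21 and 5.09 in vehicle and 5.11, 5.88, 5.33, 5.24, 5.24 and 5.29 from 1 to 24 h. The 3 h array stood alone, 0.74 ± 0.100 log2 above vehicle (1.67-fold, adjusted p = 0.0122), and the 6 h difference was 0.18 log2 (adjusted p = 0.825). Both responding probe sets lay in the dimmest 40% of the array. Adding 50 intensity units before taking log2 lowered the differences at 3 h to 0.83 for 1439568_at and 0.35 for 1419593_at, and that of 1439568_at at 6 h to 0.82, with all 3 still called.

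The remaining Greb1 probe sets share a target record and gave no call. Probe set 1445323_at read 6.29 and 5.90 in vehicle and 5.88, 6.20, 6.08, 6.25, 6.23 and 6.22 with E2. Probe set 1445324_s_at read 7.12 and 6.96 in vehicle and 7.01, 7.20, 7.18, 6.93, 7.06 and 7.02 with E2. The 3 and 6 h arrays of 1445324_s_at lay above both vehicle arrays and its 12 h array below them. On 1445323_at only the 1 h array lay outside the vehicle range, below it.

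**Figure D1:**
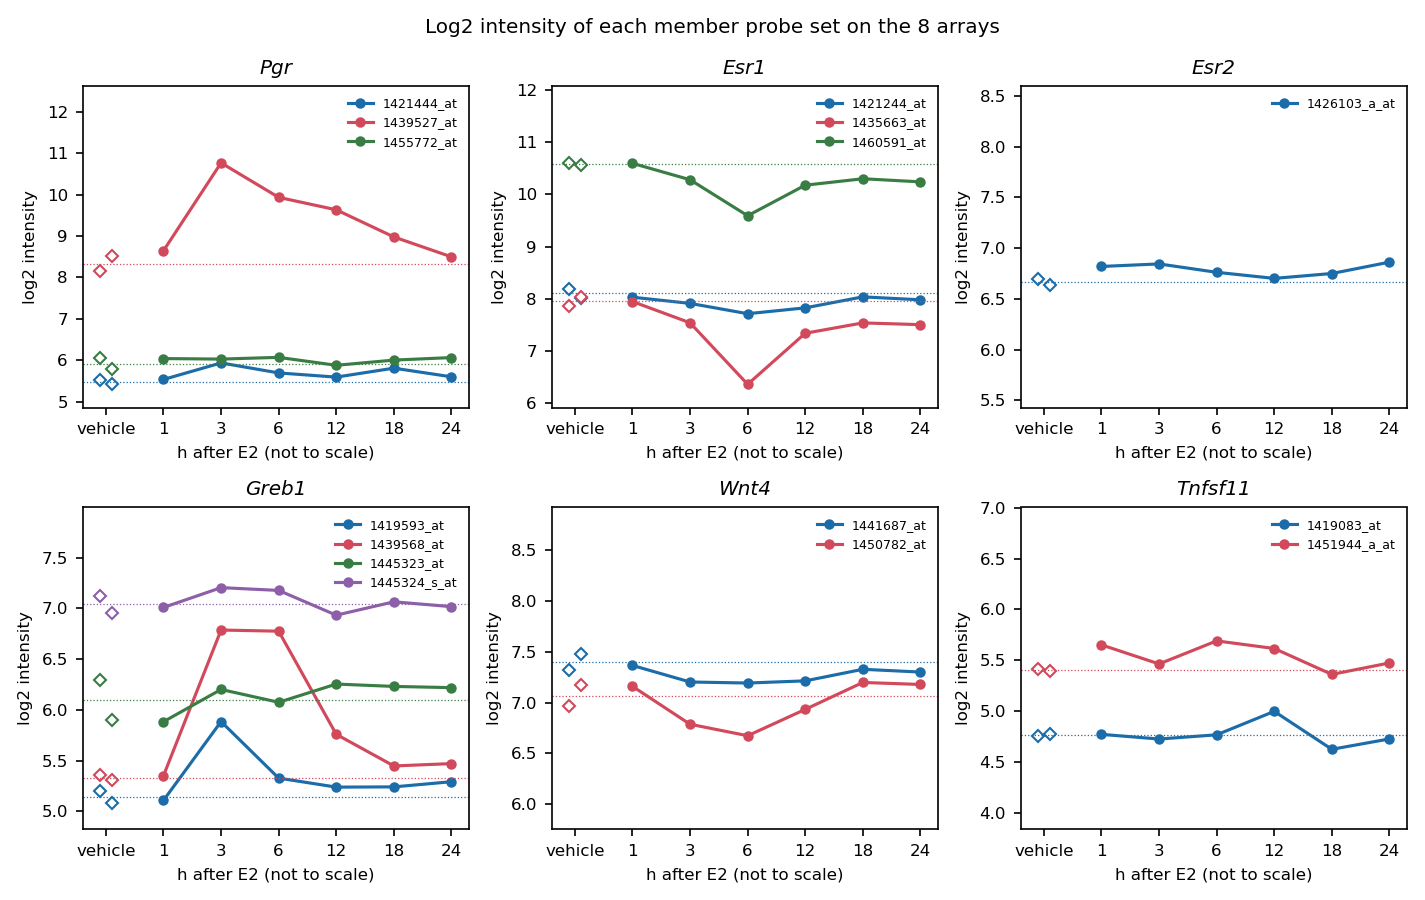
Log2 intensity of each of the 15 probe sets, 1 panel per gene: open diamonds are the 2 vehicle arrays, dotted lines their mean, and filled points the single E2 arrays, with the hours not drawn to scale. Pgr 1439527_at peaks at 10.77 at 3 h, Greb1 1439568_at is at 6.79 and 6.78 at 3 and 6 h, and Esr1 1435663_at is lowest, at 6.37, at 6 h.

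Esr1, which encodes estrogen receptor alpha, fell at 6 h. Probe set 1460591_at read 10.60 and 10.56 in vehicle and 10.59, 10.28, 9.59, 10.17, 10.30 and 10.24 from 1 to 24 h. Probe set 1435663_at read 7.87 and 8.04 in vehicle, then 7.95, 7.54, 6.37, 7.34, 7.54 and 7.51. On both, the 1 h array lay between the vehicle arrays, and the 5 arrays from 3 h on lay below both of them. The trough at 6 h was 0.99 log2 below vehicle on 1460591_at, a 1.98-fold decrease (SE 0.0866, adjusted p = 0.00144), and 1.59 log2 below on 1435663_at, a 3.00-fold decrease (SE 0.119, adjusted p = 0.000518). These 2 probe sets share a target record, so they are not independent readings of the gene.

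After the trough, Esr1 was below vehicle by less. On 1460591_at the differences were -0.40, -0.28 and -0.34 log2 at 12, 18 and 24 h (adjusted p = 0.339, 0.880 and 0.406), which is 40.9%, 28.5% and 34.5% of the 6 h difference. On 1435663_at they were -0.61, -0.41 and -0.45 log2 (adjusted p = 0.235, 0.848 and 0.444). At 3 h the differences were -0.30 and -0.41 log2 (adjusted p = 0.385 and 0.391). None of these passed the test.

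The third Esr1 probe set, 1421244_at, designed on the RefSeq mRNA, read 8.18 and 8.02 in vehicle and 8.03, 7.91, 7.72, 7.83, 8.04 and 7.98 with E2. Its lowest array was also the one at 6 h, at -0.39 log2 (interval -0.64 to -0.14, adjusted p = 0.372). In whole tissue, fewer cells that express a gene and less RNA per cell cannot be told apart.

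Esr2, which encodes estrogen receptor beta, varied little. Its single probe set, 1426103_a_at, read 6.69 and 6.64 in vehicle and 6.82, 6.84, 6.76, 6.70, 6.75 and 6.86 with E2. All 6 E2 arrays lay above both vehicle arrays, the 12 h array by the smallest margin, with no call at any time. With Pgr 1421444_at this made 2 of 15 probe sets whose E2 arrays all lay above vehicle, against 3.65% of all probe sets in that direction. Of the 15, 0 had all E2 arrays below, against 2.30% of all.

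Of the paracrine genes, neither showed a change that passed the test at any time. Wnt4, a secreted WNT ligand, read 6.96 and 7.17 in vehicle on 1450782_at and 7.16, 6.79, 6.67, 6.93, 7.20 and 7.18 with E2. The arrays at 3, 6 and 12 h were lower than both vehicle arrays, with the lowest at 6 h, and those at 18 and 24 h were slightly higher. The 6 h difference was -0.39 log2 (interval -0.68 to -0.10, adjusted p = 0.486). The other Wnt4 probe set, 1441687_at, read 7.32 and 7.47 in vehicle and 7.37, 7.20, 7.19, 7.21, 7.33 and 7.30 with E2, with the same 3 arrays below vehicle and also the 24 h array.

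Tnfsf11, which encodes the ligand RANKL, was dim on both probe sets. Probe set 1419083_at read 4.76 and 4.77 in vehicle and 4.77, 4.72, 4.77, 4.996, 4.62 and 4.72 with E2; its highest array was the one at 12 h (0.23 log2 above vehicle). Probe set 1451944_a_at read 5.42 and 5.40 in vehicle and 5.65, 5.46, 5.69, 5.62, 5.36 and 5.47 with E2. Here the 6 h array was highest, at 0.28 log2 above vehicle (adjusted p = 0.556). On 1451944_a_at the E2 arrays at 1, 3, 6, 12 and 24 h lay above both vehicle arrays and the 18 h array below them, while on 1419083_at only the 12 h array lay above both and 3 arrays lay below.

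Counted by time, limma called 3 of the 15 probe sets at 3 h (all higher), 4 at 6 h (2 higher and 2 lower) and 1 at 12 h (higher). It called 0 at 1, 18 and 24 h. Over all 45037 probe sets, in either direction, the percentages called from the first time to the last were 0.0822%, 0.591%, 0.446%, 0.0755%, 0.0266% and 0.0355%. In the direction of the member calls they were 0.413% higher at 3 h, 0.335% higher and 0.111% lower at 6 h, and 0.0577% higher at 12 h. Unadjusted p-values below 0.05 were found for 2, 6, 7, 6, 4 and 2 of the 15 in that order, and for 3.62%, 4.50%, 6.89%, 3.45%, 4.76% and 7.03% of all probe sets. The fit has 1 residual degree of freedom per probe set, from the vehicle pair, and each lone array is assumed to vary as vehicle arrays do. limma draws each variance toward a trend over all probe sets, so much of the error comes from other probe sets. For Pgr 1439527_at the vehicle SD was 0.25 log2, and the SE of its differences was 0.135.

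A rule without a test asked for a distance of 1.5-fold or more from each vehicle array, in 1 direction. It gave 0, 3, 4, 1, 0 and 0 of the 15 probe sets, against 0.142%, 0.446%, 0.406%, 0.111%, 0.0933% and 0.138% of all. By gene, the calls came from Pgr at 3, 6 and 12 h, Greb1 at 3 and 6 h and Esr1 at 6 h. Without vehicle 1 the rule gave 2 probe sets at 12 h, against 120 of all. Without vehicle 2 it gave 1 at 18 h, against 67 of all.

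**Figure D2:**
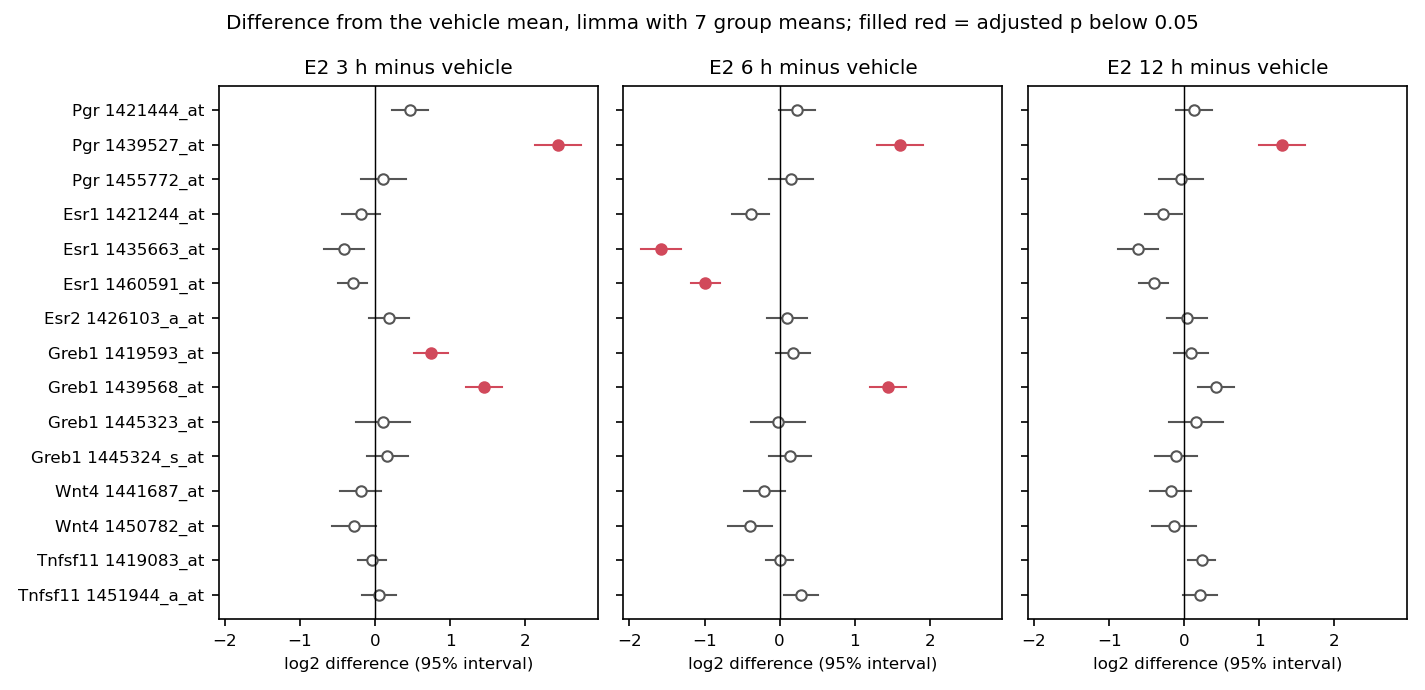
Log2 difference from the vehicle mean, with its 95% interval from limma, for the 15 probe sets at 3, 6 and 12 h after E2 (1 array against 2 vehicle arrays); filled red points have an adjusted p below 0.05. The red points are Pgr 1439527_at in all 3 panels (2.43, 1.60 and 1.30 log2), Greb1 at 3 and 6 h, and 2 Esr1 probe sets at 6 h (-1.59 and -0.99).

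Probe sets of the same gene differed in their response beyond the error of the fit, for Pgr, Greb1 and Esr1. Each pair of probe sets of 1 gene was compared by limma on the difference of their log2 values, adjusted over all 30372 such pairs of 9010 genes. Of the 14 pairs among the genes followed here, 4 were called at 3 h, 6 at 6 h and 0 at each other time. From the first time to the last, the calls among all pairs were 0.00988%, 0.0988%, 0.135%, 0.0132%, 0% and 0%. Pairs of 1 gene can share a probe set, so these counts are not independent. Every call for Pgr included 1439527_at, every call for Greb1 included 1439568_at, and the Esr1 call included 1435663_at. The comparison of pairs was chosen after the values had been seen.

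At 3 h the response of Pgr 1439527_at exceeded that of 1455772_at by 2.33 log2 (adjusted p = 0.000848) and that of 1421444_at by 1.96 log2 (0.000848). Greb1 1439568_at exceeded 1445323_at by 1.35 log2 (0.00304) and 1445324_s_at by 1.29 log2 (0.000875). At 6 h Greb1 1439568_at exceeded all 3 of the others, by 1.26 log2 over 1419593_at (0.00137), 1.46 over 1445323_at (0.00270) and 1.31 over 1445324_s_at (0.00137). Pgr 1439527_at at 6 h exceeded 1421444_at by 1.37 log2 (0.0138) and 1455772_at by 1.45 log2 (0.0259). For Esr1 at 6 h, 1435663_at was lower than 1421244_at by 1.20 log2 (0.0103). The pairs of Wnt4 and of Tnfsf11 gave no call, with the gap between the Tnfsf11 probe sets at 6 h at -0.28 log2 (adjusted p = 0.597). Where in each transcript the probes lie was not analysed here.

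The short responses did not carry over to tests on wider windows of time. With the arrays at 1, 3 and 6 h as an early group and those at 12, 18 and 24 h as a late group, 0 of the 15 probe sets were called in the early window (0.00444% of all probe sets called), 0 in the late window (0% of all) and 0 between the windows (0.222% of all). All E2 arrays together against vehicle also gave 0 calls (0% of all). At an unadjusted p below 0.05 there were 5 of the 15 in the early window against 5.44% of all probe sets, and 0 in the late window against 7.41%. Between the windows there was 1 against 13.2%, and with all E2 arrays together 2 against 3.65%. In the early window Pgr 1439527_at stood 1.45 ± 0.473 log2 above vehicle (adjusted p = 0.735) and Greb1 1439568_at 0.97 ± 0.328 (0.753), with the 1 h array, close to vehicle, counted as spread.

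Without the 1 h array the early window called both, with 148 of all probe sets called, against 2 with that array. Each array left in that window had already called Pgr 1439527_at and Greb1 1439568_at at its single time. The window calls are therefore not independent of the single-time calls. Pgr 1439527_at was then 2.02 ± 0.315 log2 above vehicle (adjusted p = 0.0230) and Greb1 1439568_at 1.45 ± 0.0991 (0.000181). The late window then lay 1.22 log2 below the early one for Greb1 1439568_at (adjusted p = 0.000203), the only one of the 15 called. Of all probe sets, 399 were called between the windows without the 1 h array, against 100 with it. For Pgr 1439527_at that gap was -1.32 log2 (0.0686). Esr1 stayed without a call in the early window, at -0.998 log2 on 1435663_at (0.234) and -0.64 on 1460591_at (0.184).

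Related genes of the pathway were counted from 6 lists, 1 probe set per gene. Among 29 measured of 32 listed estrogen target genes, 1 was called higher and 3 lower at 3 h, against 0.594% higher and 0.203% lower of all genes, with a median of -0.04 log2 beside 0.01 for all genes. The one that rose was Fos, a subunit of the AP-1 factor (0.66 log2, adjusted p = 0.0268). Those that fell were Foxa1, a pioneer factor of luminal cells (-2.63 log2, adjusted p = 2.92e-06), Cited1, a transcriptional coregulator (-0.93 log2, 0.00427), and Gata3, a luminal transcription factor (-0.86 log2, 0.00576).

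At 6 h the same list held 0 called higher and 2 lower, Cited1 (-2.02 log2, adjusted p = 7.99e-05) and Foxa1 (-0.90 log2, 0.00264), against 0.566% and 0.121% of all genes, with a median of 0.01 log2 beside 0.02. Foxa1 was the only one called at 1 h (-0.95 log2, 0.00382; 0.115% of all genes in either direction) and Cited1 the only one at 12 h (-1.21 log2, 0.00307; 0.115%). No list gene was called at 18 or 24 h, where 0.0330% and 0.0440% of all genes were. Between the windows Fos was lower in the late one (-0.82 log2, 0.00833) and Ltf, which encodes the secreted iron-binding protein lactoferrin, was higher (0.39 log2, 0.0313), against 0.308% of all genes; Ltf was named after its value had been seen.

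The list of progesterone and paracrine signalling genes had 16 measured of 19 and gave calls at 3 and 6 h only. Stat5a, a transcription factor activated by prolactin, read 10.06 and 9.97 in vehicle and 10.30, 10.76, 10.33, 10.24, 10.10 and 9.96 with E2. It was highest at 3 h, above vehicle by 0.74 log2 (adjusted p = 0.00603), with the arrays from 1 to 18 h above both vehicle arrays. Fgfr2, a receptor for fibroblast growth factors, read 10.35 and 10.46 in vehicle and 10.32, 9.56, 9.84, 10.26, 10.36 and 10.38 with E2. It was lowest at 3 h, at -0.84 log2 (0.00302), and was called at 6 h too, at -0.56 log2 (0.0341).

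Over all genes, 0.00550% were called in the early window, 0% in the late window and 0% with all E2 arrays together, and 0 genes of the 6 lists were. In the remaining 4 lists no gene was called in any of the 10 comparisons. They were the RANK pathway (13 measured of 15), WNT receptors and targets (25 of 26), other steroid and orphan receptors (11 of 12), and steroid receptor chaperones and coregulators (14 of 18). Tnfrsf11a, the receptor of RANKL, differed from vehicle by 0.00 log2 at 3 h and 0.16 at 6 h, and its soluble decoy receptor Tnfrsf11b by -0.04 and 0.06. Axin2, a feedback gene of WNT signalling, differed by 0.12 and 0.10 log2 at these times. The genes of the WNT list spanned -0.48 to 0.43 log2 at 3 h and -0.26 to 0.45 at 6 h. Listed genes without a probe set of their own symbol, Areg and Prlr among them, were not analysed here.

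**Figure D3:**
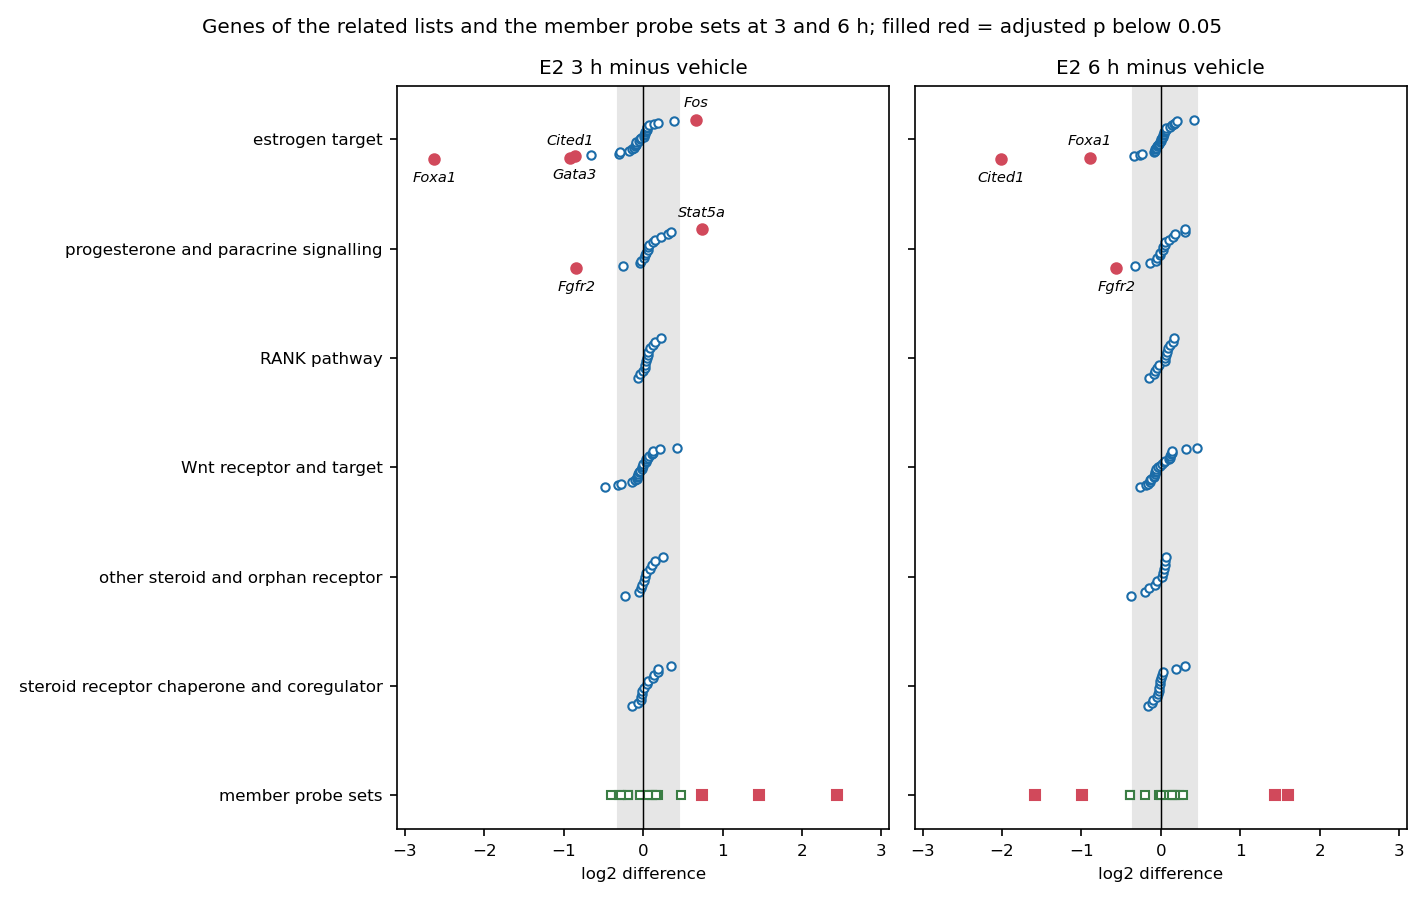
Log2 difference from the vehicle mean at 3 h and at 6 h for the measured genes of the 6 lists (circles) and the 15 probe sets (squares, bottom); filled red has an adjusted p below 0.05, and grey spans the percentiles 1 to 99 of all 18193 genes (-0.32 to 0.45 log2 at 3 h, -0.35 to 0.45 at 6 h). The farthest circles are Foxa1 at 3 h (-2.63 log2) and Cited1 at 6 h (-2.02 log2), and most others lie in the grey.

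The genes whose course over the 6 times was most like that of Pgr, Greb1 and Esr1 were sought among the 350 probe sets, of 272 genes, that met the 1.5-fold rule at some time. Each profile of differences was divided by its own largest absolute difference, and likeness is the root mean square distance between profiles, where 0 means the same shape. This is a description over 6 arrays that share the same vehicle pair. Nearest to Pgr 1439527_at was Fbxo31 (0.130), followed by Mmd2 and Prom2 (both 0.159). Fbxo31 was 0.76 log2 above vehicle at 3 h, 0.46 at 6 h and 0.24 at 12 h, and Prom2 1.54, 1.04 and 0.29.

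Nearest to Greb1 1439568_at were Mmd2 (0.104), Syn2 (0.111) and Ngfr (0.118). Mmd2 was 1.23 log2 above vehicle at 3 h, 1.42 at 6 h and 0.67 at 12 h. Pgr and Greb1 lay 0.191 apart. Ranked by probe set and not by gene, Greb1 was at 19 among the neighbours of Pgr, and Pgr at 23 among those of Greb1. Nearest to Esr1 1435663_at were Smpd3 (0.0579), Asb13 (0.111) and Alcam (0.173). Smpd3 read 8.44 and 8.36 in vehicle and 8.39, 8.05, 7.47, 7.98, 8.13 and 8.14 with E2, lowest at 6 h as Esr1 was, at -0.93 log2.

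**Figure D4:**
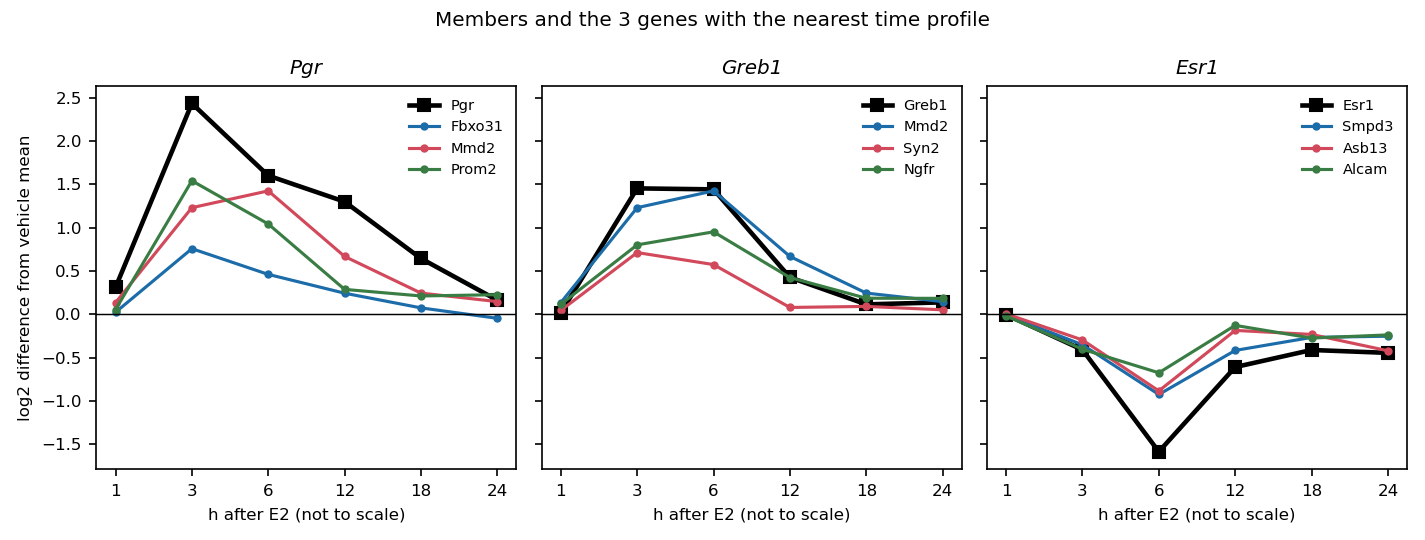
Log2 difference from the vehicle mean at the 6 times (1 array each, hours not to scale) for Pgr, Greb1 and Esr1, in black, and for the 3 genes nearest in scaled profile to each. Pgr is highest at 3 h (2.43 log2), Greb1 is level at 3 and 6 h (1.45 and 1.44), and Esr1 with Smpd3, Asb13 and Alcam is lowest at 6 h.

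Markers of the cell types in the tissue moved between the same arrays. Skeletal muscle markers (14 of 14 measured) had a mean 0.81, 0.65, 1.29, 0.20, 0.84 and 0.97 log2 above vehicle from 1 to 24 h, highest on the 6 h array where Esr1 was lowest, and the vehicle arrays themselves differed by 0.38. Luminal epithelial markers (13 measured of 15) differed by 0.02, -0.13, -0.14, 0.32, 0.26 and 0.23 log2, so their mean was slightly below vehicle at 3 and 6 h, when Pgr and Greb1 were highest, and above it from 12 h. Adipocyte markers (6 of 8) were at -0.19 log2 at 3 h and -0.16 at 6 h, and B lymphocyte markers (7 of 8) at -0.40 at 18 h and -0.38 at 24 h. The part of these shifts in the differences of Pgr, Greb1, Esr1 and the others was not tested at single times.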

How the data were processed

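Total RNA of mouse inguinal mammary gland was labelled with biotin and hybridised to 1-colour Affymetrix arrays, per the labels' protocols. The authors deposited a linear intensity for each probe set, from 13.8 to 23591, and GCOS 1.0 and RMA are named in the submitters' processing notes, which give no role for either. Array medians were nearly equal, so the deposited intensities were put on the log2 scale as they stood. The number of arrays limits the precision.

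The 64 control probe sets were left out. Of the other 45037, 34945 carried 1 gene symbol in the platform annotation, 932 several and 9160 none. Differences were tested with limma 3.58.1 in R 4.3.3 (lmFit, eBayes with a mean-variance trend, two-sided), with Benjamini-Hochberg adjustment over all 45037 probe sets, and were called at an adjusted p below 0.05. Single times used 7 group means and 1 residual degree of freedom, the windows 5, and all E2 arrays together 6. Related lists used for each gene its probe set of highest mean, with the p adjusted over all probe sets. Since nothing states that the vehicle arrays came from separate animals, p-values cover only array-to-array spread, possibly technical. The members and lists were chosen with earlier results of these data known. All probe sets of the 6 genes were named, with the 3 genes nearest in profile to each responding one and at most 4 called genes per list. Alternatives were a level filter, quantile normalization, an added 50 units, no trend, 1 probe set per gene, marker covariates, a 2-fold rule and leaving out each array. The scripts were tested on simulated data.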

Additional observations from a re-analysis of the deposited data

How the results depend on the processing

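The 8 called differences of single probe sets kept their direction in all 89 alternatives run, but in most of these it could not change. Leaving out an E2 array of another time or dropping the trend leaves a single-time difference exactly as it was. So do the level filter and the choice of 1 probe set per gene. Direction was tested only by quantile normalization, the added intensity units and leaving out a vehicle array. The 8 differences kept their side of the threshold in 71 of the 73 alternatives that had a test. The exceptions were Pgr at 12 h with the filter at the 40th percentile (adjusted p = 0.0562) and without the trend (0.0516). The difference of Pgr 1439527_at at 3 h ranged from 2.25 to 2.61 log2, and that of Esr1 1435663_at at 6 h from -1.67 to -1.17.

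Of 196 alternatives for 16 counts, 184 were equal to the reported count or within 1.5 times of it. Many of these are counts of 0 that stayed 0, as at 1 h, at 24 h and in the late window. Such runs say little about stability. Counts past 1.5-fold cannot change when an E2 array of another time is left out, so those runs do not test them. The filter at the 40th percentile keeps 7 of the 15 probe sets and takes out both responding Greb1 probe sets. Among these 7 it left 1 called at 3 h, against 157 of all probe sets kept, and 1 past 1.5-fold, against 165. At 12 h it left 0 called, against 14 of all probe sets kept. The filter keeps the Pgr probe set called there, and the cause of its higher adjusted p was not tested. With 1 probe set per gene, 1 was called at 3 h, against 113 of all genes, and 1 was past 1.5-fold, against 112. At 6 h 2 were called, against 118 of all genes, and 2 were past 1.5-fold, against 109. Without the trend 0 were called at 12 h, against 18 of all probe sets (34 with the trend). Leaving out 1 array at a time gave 0 to 2 calls in the early window and 0 to 1 between the windows, the higher values without the E2 1 h array. Over all probe sets these runs gave 0 to 148 calls in the early window and 2 to 399 between the windows, again highest without that array. Leaving out 1 vehicle array gave 1 to 2 past 1.5-fold at 12 h and 0 to 1 at 18 h, against 120 to 121 and 67 to 231 of all probe sets.

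No paired analysis was possible because the E2 groups hold 1 array each and only the vehicle arrays carry replicate numbers. Without either vehicle array the single times have no residual degree of freedom and gave 16 values with no test. Marker covariates could not be fitted at single times. Dim probe sets limit what can be seen for Tnfsf11 and Esr2, where a p that misses the threshold does not show that a level stayed the same.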

Other observations

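The chaperones and coregulators of steroid receptors were mostly below the vehicle mean late in the course, with no gene passing the test. This list was picked out of the 6 lists after its values had been seen. Of 14 measured genes, 12 lay below vehicle in the late window, with a median of -0.05 log2 beside 0.01 for all genes. At 24 h 12 lay below, with a median of -0.10 beside 0.02. The share of all genes below vehicle is not given here, and all genes share 1 vehicle pair. In the late window 16 of 25 genes of the WNT list, 8 of 13 of the RANK list and 15 of 29 estrogen targets also lay below. For the progesterone and paracrine list it was 7 of 16, and for the other receptors 3 of 11. limma called 0 of the 14 at 24 h, where 2 had an unadjusted p below 0.05, against 6.52% of all 18193 genes. In the early window 8 of the 14 lay above and 6 below, with a median of 0.01 log2. Vehicle 2 read higher than vehicle 1 for all of these genes but Ncoa1, Ncoa3 and Carm1. Hspa8 read 12.74 and 12.94 in vehicle and 12.74 at 24 h, and Fkbp5 read 10.07, 10.46 and 10.30. Against vehicle 1 alone, Fkbp4, Fkbp5, Hsp90aa1, Hspa8, Stip1 and Carm1 were not lower at 24 h, and the others were.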
